A study of Homo sapiens with 10 samples.

Results

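The 10 genes described here are 4 Notch receptors (NOTCH1, NOTCH2, NOTCH3 and NOTCH4), 4 ligands of these receptors (JAG1, JAG2, DLL1 and DLL4) and 2 target genes of the pathway (HES1 and HEY1). They were chosen by gene symbol and not by a rule on their measured values, although earlier results of these data were known. All 10 were found among the 46427 genes of the deposited expression table. Poly(A) RNA sequencing had been performed on 10 cultures of H460 and A549 cells, which are established human non-small cell lung cancer cell lines, to characterize cells that survive chemotherapy and cells that grow in suspension. H460 cells comprised 3 libraries of parental cells in 2D culture, 1 library of cisplatin-resistant (CR) cells, 2 of paclitaxel-resistant (PR) cells, 1 of doxorubicin-resistant (DR) cells and 1 of tumor spheroid (TS) cells. A549 cells comprised 1 library of 2D-cultured cells and 1 of TS cells.

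Resistant here means surviving a single course of drug. CR cells had received 4 µM cisplatin, PR cells 5 nM paclitaxel and DR cells 0.5 µM doxorubicin for 3 days, followed by 3 days in fresh medium, and the cells that attached after re-plating were taken. TS cells had been kept on plates that prevent attachment, in medium with B27 and growth factors, and passaged at least 3 times, so culture surface, medium and passage changed together. The labels do not say whether libraries of the same group came from separate cultures, and p-values therefore measure only the spread between these libraries, which may be technical. CR, DR and both TS groups had 1 library each, as did 2D-cultured A549 cells.

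Notch receptors are cell-surface proteins that are activated by Jagged or Delta-like ligands on a neighboring cell. Ligand binding exposes the receptor to ADAM proteases and then to γ-secretase, and the released intracellular part enters the nucleus and joins the DNA-binding protein RBPJ to switch on genes such as HES1 and HEY1, which encode transcriptional repressors. In the lung, Notch signaling is known for its part in the choice between ciliated, secretory and neuroendocrine cell fates, and in lung cancer NOTCH1 and NOTCH3 have been studied as drivers of growth in adenocarcinoma.

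The table lists the genes by NCBI Gene identifiers, which are 4851 for NOTCH1, 4853 for NOTCH2, 4854 for NOTCH3, 4855 for NOTCH4, 182 for JAG1, 3714 for JAG2, 28514 for DLL1, 54567 for DLL4, 3280 for HES1 and 23462 for HEY1. On GRCh38 in GENCODE 29, the receptors NOTCH1, NOTCH2, NOTCH3 and NOTCH4 lie on the minus strand at chr9:136494433-136545786, chr1:119911553-120069626, chr19:15159038-15200981 and chr6:32194843-32224067. The ligands JAG1, JAG2 and DLL1 lie on the minus strand at chr20:10637684-10673999, chr14:105140981-105168824 and chr6:170282206-170306565 and DLL4 on the plus strand at chr15:40929333-40939073, and HES1 lies on the plus strand at chr3:194136145-194138732. Counts cover the exons of each gene as a whole, and transcript variants were not separated.

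HES1 and NOTCH3 were among the members whose drug comparison depended on a single parental library. The sequence upstream of each of these genes is given, from RefSeq on GRCh38.p14. Each is the 250 bases before the annotated start, printed 5′ to 3′ on the strand of the gene. HES1 lies on the plus strand and its sequence covers chr3:194135898-194136147, and NOTCH3 lies on the minus strand and its sequence covers chr19:15200996-15201245. Capitals mark TGGGAA, the core letters that RBPJ binds.

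HES1: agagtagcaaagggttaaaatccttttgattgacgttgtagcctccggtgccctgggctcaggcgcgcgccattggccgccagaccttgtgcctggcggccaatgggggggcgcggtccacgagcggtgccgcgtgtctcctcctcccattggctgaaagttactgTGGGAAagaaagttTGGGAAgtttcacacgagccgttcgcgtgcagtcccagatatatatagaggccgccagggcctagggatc

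NOTCH3: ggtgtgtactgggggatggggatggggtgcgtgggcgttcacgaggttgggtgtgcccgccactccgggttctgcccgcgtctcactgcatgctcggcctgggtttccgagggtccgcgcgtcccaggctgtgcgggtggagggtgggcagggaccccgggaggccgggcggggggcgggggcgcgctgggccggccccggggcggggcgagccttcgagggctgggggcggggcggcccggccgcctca

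The HES1 sequence held TGGGAA from 84 to 79 and from 70 to 65 bases before the start, both on the strand of the gene, and the first of these was part of GTGGGAA. Searching both strands, TGGGAA was present in 20.8% of 35116 promoters of this length, at 2 or more places in 2.90%, and GTGGGAA in 5.43%. NOTCH3 held no TGGGAA in this window, nor did NOTCH1, NOTCH2, NOTCH4, JAG1, JAG2 and DLL4. The letters CACNAG, part of the N-box that HES proteins bind, matched at 3 places in the HES1 sequence and at 1 place each in NOTCH3 and NOTCH4, against 32.0% of all promoters with at least 1 match. These matches overlapped none of the TGGGAA matches. Promoters of 8 of the 10 members were matched in the table used, and DLL1 and HEY1 were not.

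Library totals ranged from 59499787 to 89541774 counts. H460 cells expressed KRT8, KRT18 and KRT19, keratins of simple epithelia, at 138 FPKM (fragment counts scaled for transcript length and library size) or more in every H460 library. CDH1 and EPCAM, markers of epithelial junctions, stayed at or below 0.114 FPKM in all H460 libraries, and the 5 epithelial markers summed to 985–1139 FPKM in parental, 712–1624 FPKM in drug-resistant and 2801–7177 FPKM in A549 libraries. Of the 5 proliferation genes examined, all 5 fell in drug-resistant cells, from a summed 252–426 FPKM to 15.1–67.4 FPKM. Of the 6 endothelial markers 2 rose, of 5 leukocyte markers 2 rose, and of 6 fibroblast markers 3 rose and 1 (COL3A1) fell in drug-resistant cells. The endothelial markers summed to at most 0.484 FPKM in any library, with ERG at or below 0.00436 FPKM, and PTPRC and CD3E reached at most 0.157 FPKM, and CD14 made up nearly all of the leukocyte sum of 2.78–9.49 FPKM in parental and 11.8–17.6 FPKM in drug-resistant cells. COL1A1 rose from 0.085–0.193 to 0.783–6.51 FPKM. The neuroendocrine markers summed to 1.19–3.11 FPKM over all libraries, and the part of any of these markers in the results below was not tested. In bulk RNA, fewer cells of one kind and less RNA per cell cannot be told apart.

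The libraries carried names of 2 forms in the labels. This form was examined as a possible batch because some members, such as NOTCH1 and NOTCH2, were low in parental library 2. Parental libraries 1 and 3, PR library 1, the H460 TS library and both A549 libraries shared one form. The name of PR library 1 also ended in "exp", as no other name did, and the meaning of this ending is not given. Parental library 2, PR library 2 and the CR and DR libraries shared the other. Among the 1555 expressed genes with a transcript length of at least 8 kb, the median difference of parental library 2 from the mean of libraries 1 and 3 was −0.28 on the log2 CPM scale (counts scaled to library size), and PR library 2 lay 0.35 below PR library 1. Among the 1499 genes shorter than 1.5 kb these differences were 0.27 and 0.14. NOTCH1, NOTCH2 and NOTCH3 belong to the long class, at 10.9, 13.0 and 9.11 kb as computed from counts and FPKM. NOTCH1 was further down than this class median, at 1.47 FPKM in parental library 2 against 6.94 and 5.83 FPKM in libraries 1 and 3. Parental libraries 1 and 3 share a name form but differed in NOTCH3 (47.8 and 144 FPKM) and HES1 (1.79 and 22.7 FPKM). The cause of these differences was not tested.

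NOTCH3 had the highest level of all members in every H460 library, and it varied widely among parental cells. Its level was 47.8, 31.4 and 144 FPKM in parental libraries 1, 2 and 3. It was 69.8 FPKM in CR cells, 107 and 74.8 FPKM in PR cells and 95.5 FPKM in DR cells. The drug-resistant libraries thus all lay inside the parental range, above libraries 1 and 2 and below library 3. It was 81.1 FPKM in H460 TS cells, whereas 2D and TS A549 cells had 7.24 and 16.0 FPKM.

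Of the other receptors, NOTCH2 was measured at 10.8, 4.33 and 13.0 FPKM in the parental libraries, at 5.22 FPKM in CR, 10.0 and 7.49 FPKM in PR and 6.53 FPKM in DR cells, at 8.62 FPKM in H460 TS cells and at 11.5 and 10.2 FPKM in 2D and TS A549 cells. NOTCH1, the receptor most often mutated in leukemia of T cells, was measured at 6.94, 1.47 and 5.83 FPKM in parental, 3.92 FPKM in CR, 8.24 and 6.49 FPKM in PR, 3.84 FPKM in DR, 6.52 FPKM in H460 TS cells, and 3.69 and 1.64 FPKM in 2D and TS A549 cells. For both receptors parental library 2 was the lowest of the 8 H460 libraries. NOTCH4, known mainly from endothelium, was low, at 0.257, 0.810 and 0.522 FPKM (146–404 counts) in parental cells. It was between 0.489 and 0.713 FPKM in drug-resistant cells and 0.820 FPKM in H460 TS cells. In 2D and TS A549 cells it was near the lower end of detection, at 0.0335 and 0.0818 FPKM (17 and 45 counts). Reads of NOTCH2 could be shared with its near-identical partial copies NOTCH2NLA, NOTCH2NLB, NOTCH2NLC and NOTCH2NLR, which summed to 1.89–4.64 FPKM.

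NOTCH3 therefore made up most of the receptor transcripts of H460 cells. Its share of the summed FPKM of the 4 receptors was between 72.6% and 89.8% in the 8 H460 libraries, and it was 32.3% in 2D and 57.3% in TS A549 cells. NOTCH2 held 6.14–16.5% in H460 and 36.5–51.1% in A549 cells, and NOTCH4 at most 2.13% in any library. Of the ligands, JAG1 held 76.7–92.3% in H460 and 86.4–90.7% in A549 cells, JAG2 held 7.26–22.8% over all libraries, and DLL1 and DLL4 at most 2.78% and 1.13%.

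**Figure D1:**
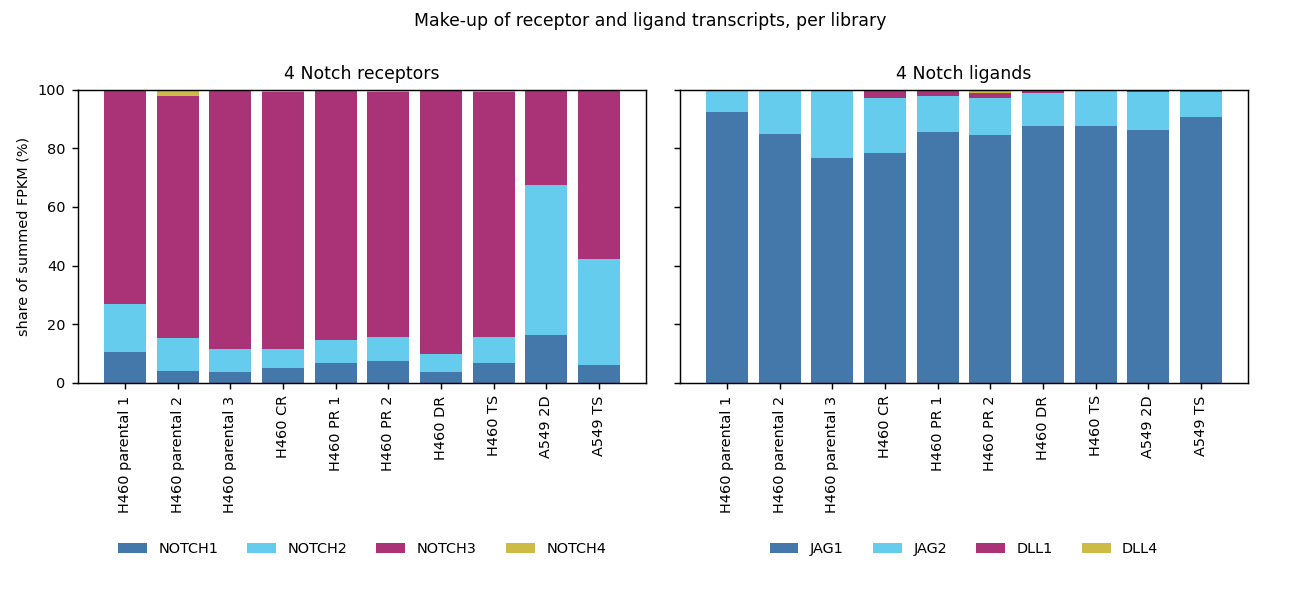
Share in percent of the summed FPKM of the 4 receptors (left) and of the 4 ligands (right) in each of the 10 libraries, stacked by gene. NOTCH3 fills 72.6–89.8% of the receptor bar in the H460 libraries and 32.3% and 57.3% in the A549 libraries, and JAG1 fills at least 76.7% of every ligand bar.

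In parental H460 cells the mean level was 74.3 ± 60.7 FPKM (SD, n = 3) for NOTCH3, 9.39 ± 4.52 for NOTCH2, 8.42 ± 12.3 for HES1, 7.19 ± 2.58 for JAG1, 4.75 ± 2.89 for NOTCH1, 1.19 ± 0.590 for JAG2, 1.12 ± 0.142 for HEY1, 0.530 ± 0.277 for NOTCH4, 0.0330 ± 0.00971 for DLL1 and 0.00872 ± 0.0151 for DLL4. The lowest NOTCH3 library lay above the highest NOTCH2 library. From NOTCH2 down to JAG2 each gene overlapped the next in this order, the last of these being HEY1. HEY1 did not overlap NOTCH4, nor NOTCH4 DLL1, nor DLL1 DLL4. DLL4 had 8 counts in parental library 1 and 0 in libraries 2 and 3, which allows up to 3 counts, for counting error only.

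**Figure D2:**
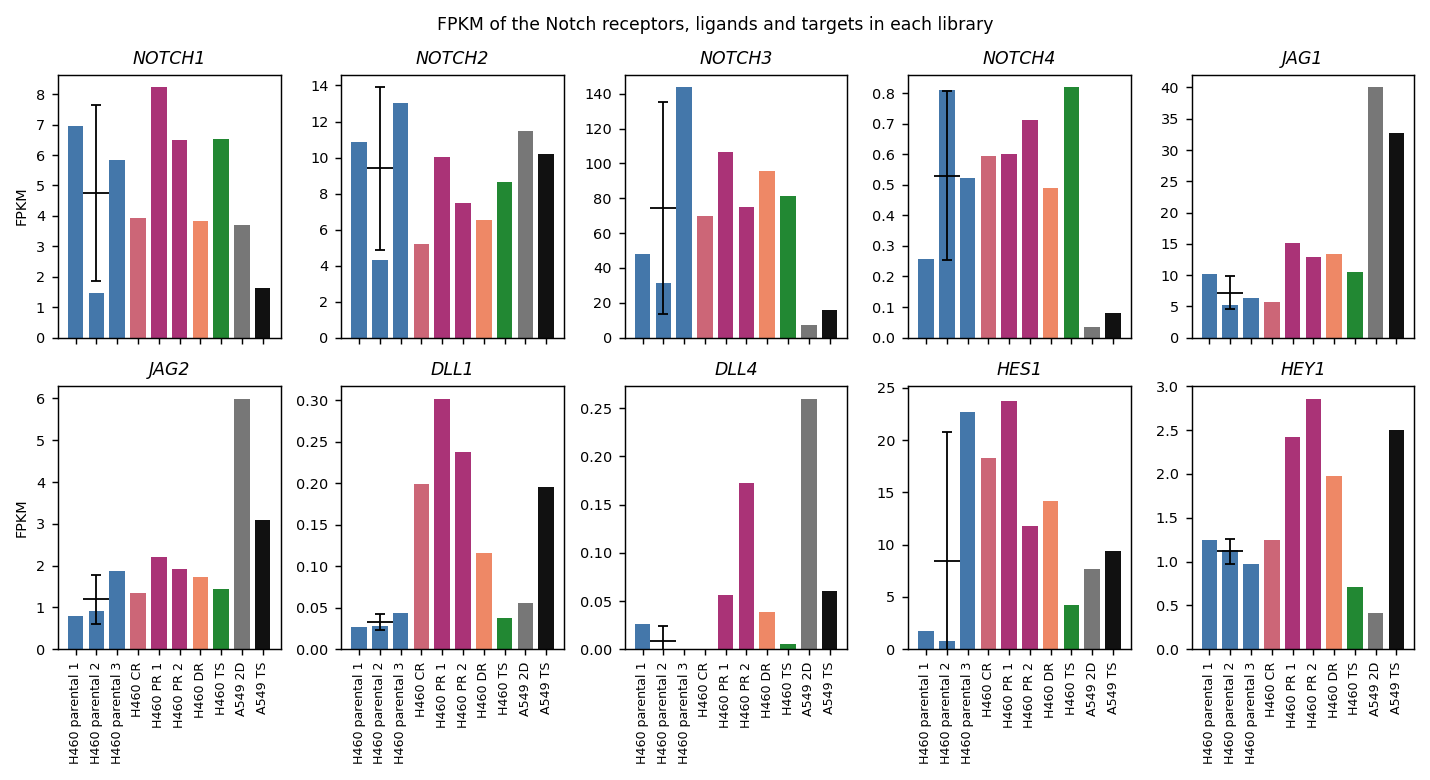
FPKM of each of the 10 genes (1 panel a gene, each with its own axis from 0) in the 10 libraries, with the mean ± SD of the 3 parental libraries drawn at the second bar. DLL1 is higher in all 4 drug-resistant than in all 3 parental libraries, HES1 and NOTCH3 are high in parental library 3, and JAG1 and JAG2 are highest in the A549 libraries.

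To learn whether surviving a drug changed these genes, the 4 drug-resistant libraries were compared with the 3 parental libraries, with the drugs taken as samples of drug-resistant cells. DLL1, a Delta-like ligand, rose 5.43-fold. It was measured at 0.0263, 0.0285 and 0.0441 FPKM (9, 8 and 15 counts) in parental cells, at 0.199 FPKM (59 counts) in CR cells, at 0.302 and 0.237 FPKM (97 and 60 counts) in PR cells and at 0.115 FPKM (44 counts) in DR cells. Every drug-resistant library was above every parental library, and all 7 values were low. The log2 fold change was 2.44 ± 0.49 (SE), with an adjusted p of 0.00509 in the quasi-likelihood test of edgeR with Benjamini-Hochberg adjustment over 19902 genes. DLL1 was the only member called of the 10 tested, and 32.5% of all genes tested were called, 18.2% as higher (3624) and 14.3% as lower (2841). The median log2 fold change over all genes was 0.11, and with upper-quartile factors it was 0.29, the split 4458 to 2007 and the value of DLL1 2.62. It was also the only member whose groups did not overlap, against 25.9% of genes with all drug-resistant above all parental libraries and 38.7% with no overlap in either direction. The difference was 2.66 within the first form of library name (1 PR and 2 parental libraries) and 2.29 within the other (3 drug-resistant and 1 parental library), on the log2 CPM scale. FAM120B lies across DLL1 on the opposite strand, but none of its exons shares bases with an exon of DLL1 in GENCODE 29.

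HES1, the main effector of canonical Notch signaling in many tissues, had the widest fold range in parental cells of the members without a count of 0. Its level was 1.79, 0.813 and 22.7 FPKM (237, 95 and 3184 counts) in parental libraries 1, 2 and 3. It was 18.3 FPKM in CR, 23.8 and 11.7 FPKM in PR and 14.2 FPKM in DR cells. All drug-resistant libraries were above parental libraries 1 and 2, and parental library 3 was above all but PR library 1. The log2 fold change was 0.82 ± 0.89 with an adjusted p of 0.497, and without parental library 3 it was 3.59 with an adjusted p of 0.00148 (0.00148–0.814 over the alternatives). Among libraries of the first name form the difference was 1.66, from 1 PR library against parental libraries 1 and 3. Within the other form it was 4.09, from 3 drug-resistant libraries against parental library 2.

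The 27.9-fold range of HES1 among parental libraries was reached or passed by 10 of the 11607 genes with a mean parental level of at least 1 FPKM, or 0.0862%, while the median gene had a 1.53-fold range. NOTCH3 had a 4.58-fold range, reached by 120 of these genes (1.03%). Parental library 3 was also the highest of the 3 for NOTCH2, JAG2 and DLL1. For NOTCH3 the log2 fold change in drug-resistant cells was 0.05 ± 0.46 with an adjusted p of 0.947, and without parental library 3 it was 1.01 with an adjusted p of 0.0248 (0.0248–0.974 over the alternatives). The within-form differences of NOTCH3 were 0.12 and 1.31. JAG2 showed the same dependence, with a log2 fold change of 0.42 ± 0.32 (adjusted p = 0.328) and of 0.95 (adjusted p = 0.0155, and 0.0155–0.703 over the alternatives) without parental library 3. Whether HES1, NOTCH3 and JAG2 differ in drug-resistant cells thus turned on 1 parental library.

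**Figure D3:**
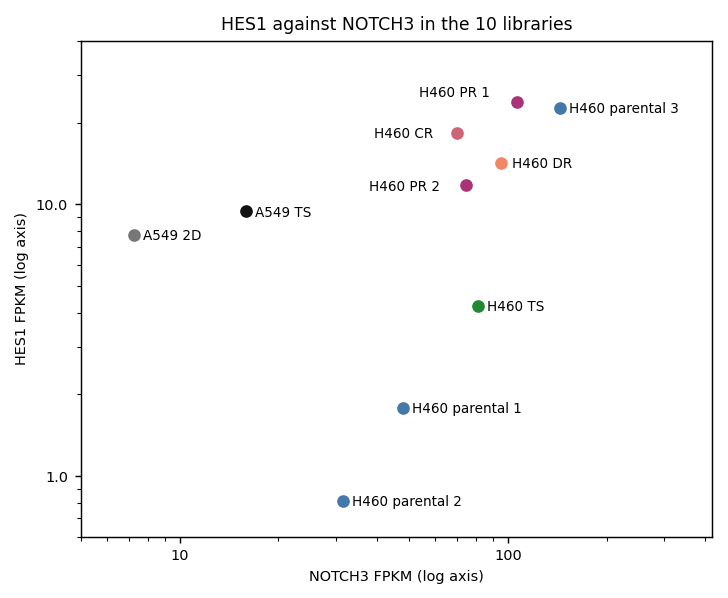
HES1 FPKM against NOTCH3 FPKM in the 10 libraries, both on log axes, 1 point a library. Parental library 3 (144 and 22.7 FPKM) has more NOTCH3 than any drug-resistant library and HES1 within their range of 11.7–23.8 FPKM, while parental libraries 1 and 2 lie below them on both axes, and the A549 libraries combine the lowest NOTCH3 levels (7.24 and 16.0 FPKM) with 7.72 and 9.42 FPKM of HES1.

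HEY1, the other target gene, was 1.25, 1.13 and 0.968 FPKM in parental cells, 1.24 FPKM in CR, 2.42 and 2.86 FPKM in PR and 1.98 FPKM in DR cells. The CR library lay just under the highest parental library and the other drug-resistant libraries above it. The log2 fold change was 0.78 ± 0.27 with an adjusted p of 0.0502, which missed the threshold of 0.05, and the call was made under 5 of the 15 alternatives, with adjusted p between 0.0206 and 0.130 over these. Within the forms of library name the differences were 0.89 and 0.74.

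JAG1 was 10.1, 5.18 and 6.30 FPKM in parental cells, 5.62 FPKM in CR, 15.2 and 13.0 FPKM in PR and 13.3 FPKM in DR cells, so that PR and DR cells were above and CR cells within the parental range. Its log2 fold change of 0.56 ± 0.33 did not pass the test (adjusted p = 0.209). JAG2 was 0.795, 0.906 and 1.87 FPKM in parental, 1.35 FPKM in CR, 2.20 and 1.93 FPKM in PR and 1.74 FPKM in DR cells. DLL4, a ligand known from angiogenesis, had no count in CR cells, 17 and 40 counts in PR cells and 14 in DR cells, and its log2 fold change of 2.60 ± 1.48 (adjusted p = 0.199) rests on counts at or near 0. NOTCH1, NOTCH2 and NOTCH4 had log2 fold changes of 0.06 ± 0.46, −0.53 ± 0.35 and 0.06 ± 0.34, with adjusted p of 0.925, 0.261 and 0.908. Without parental library 2, NOTCH2 passed the test at −0.90 (adjusted p = 0.0300, and 0.0300–0.918 over the alternatives). Within the first form of library name (1 PR and 2 parental libraries) the NOTCH1 difference was 0.14 and that of NOTCH2 −0.48. Within the other form they were 1.62 and 0.51, from 3 drug-resistant libraries against parental library 2 alone. A difference between the forms thus cannot be told apart from that single parental library.

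**Figure D4:**
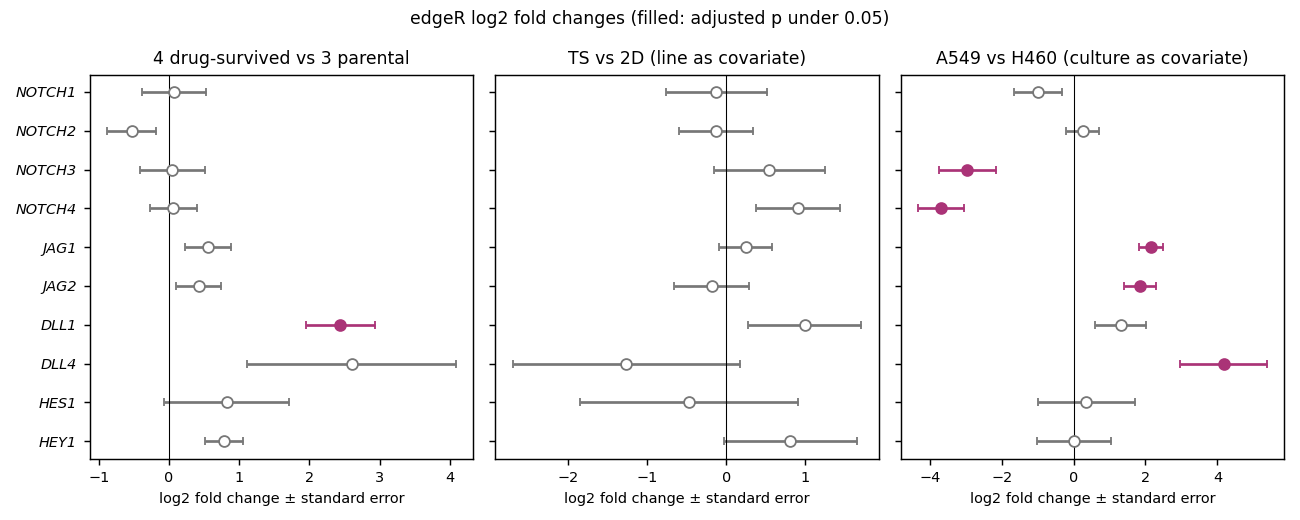
Log2 fold changes ± SE from edgeR for the 10 genes in drug-resistant against parental H460 cells (left), TS against 2D culture (middle) and A549 against H460 cells (right), with filled points for an adjusted p under 0.05. DLL1 is the only filled point on the left, none is filled in the middle, and NOTCH3 and NOTCH4 are filled below 0 and JAG1, JAG2 and DLL4 above 0 on the right.

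The 2 PR libraries alone, compared with the same 3 parental libraries, showed DLL1 at a log2 fold change of 2.74 ± 0.51 (adjusted p = 0.00550) and HEY1 at 1.00 ± 0.31 (adjusted p = 0.0400). These were the 2 members called, and 28.1% of 19430 genes tested were called, 3387 higher and 2079 lower (4274 and 1355 with upper-quartile factors). DLL1 lost the call when PR library 1 (adjusted p = 0.0704) or PR library 2 (adjusted p = 0.0540) was left out, and was called under the other 13 of 15 alternatives (0.000292–0.0704). HEY1 lost it without either PR library (adjusted p = 0.148 and 0.294) and without parental library 2 (0.102) or 3 (0.0563), and was called under 7 of 15 alternatives (0.00392–0.294). JAG1 was 0.73 ± 0.32 with an adjusted p of 0.112, and it passed without parental library 1 at 1.07 (adjusted p = 0.0188, and 0.0188–0.370 over the alternatives). DLL4 was 3.31 ± 1.14 with an adjusted p of 0.0568. JAG2 was 0.53 ± 0.40 (adjusted p = 0.345), and without parental library 3 it passed at 1.08 (adjusted p = 0.0212, and 0.0212–0.623 over the alternatives). NOTCH1, NOTCH2 and NOTCH4 were 0.38 ± 0.54, −0.36 ± 0.45 and 0.08 ± 0.45, with adjusted p of 0.627, 0.566 and 0.907. HES1 was 0.79 ± 1.09 and NOTCH3 0.01 ± 0.58, and without parental library 3 they passed the test at 3.57 and 1.00 with adjusted p of 0.00555 and 0.0465 (0.00225–0.941 and 0.0113–0.998 over the alternatives). This comparison and the one before share the parental libraries and PR libraries.

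Paclitaxel acts on microtubules, whereas cisplatin and doxorubicin damage DNA. The PR libraries were compared with the CR and DR libraries directly, and no member was called. The log2 fold changes were 0.71 ± 0.50 for DLL1, 0.52 ± 0.32 for HEY1, 0.40 ± 0.42 for JAG1, 0.26 ± 0.42 for JAG2, 2.28 ± 1.49 for DLL4, 0.74 ± 0.58 for NOTCH1, 0.39 ± 0.46 for NOTCH2, 0.09 ± 0.45 for NOTCH4, −0.05 ± 1.19 for HES1 and −0.05 ± 0.63 for NOTCH3, with adjusted p between 0.530 (HEY1) and 0.992 (HES1) over all members. Of all 19902 genes tested 0% were called by edgeR, although 2484 had an unadjusted p under 0.05, DESeq2 called 419 and limma 1091. The design had 2 libraries on each side, and the 2 drugs that damage DNA differed between themselves in JAG1, at 5.62 FPKM in CR and 13.3 FPKM in DR cells, without a replicate of either.

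Each drug was also set against the mean of the parental libraries on the log2(FPKM + 1) scale, which understates changes of genes with a low FPKM and carries no replicate check. HES1 was the only member more than 2-fold apart, with differences of 1.97 in CR, 1.85 in PR (mean of the 2 libraries) and 1.63 in DR cells. Of 13439 genes, 12.1% were as far apart with cisplatin, with 5.49% of genes above and 6.64% below the control. These shares were 13%, 7.43% and 5.54% with paclitaxel and 10.8%, 5.4% and 5.35% with doxorubicin. With parental library 3 alone as the control the HES1 differences were −0.29, −0.41 and −0.64.

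In TS cells, grown without attachment, no member passed the test against 2D culture with the cell line as a covariate. Only 0.189% of 18488 genes tested were called, which was 35 genes by edgeR, 27 higher (0.146%) and 8 lower (0.0433%). The lowest p was that of NOTCH4, which had a log2 fold change of 0.90 ± 0.53 (adjusted p = 0.932). DLL1 was 0.99 ± 0.72, HEY1 0.81 ± 0.84, NOTCH3 0.54 ± 0.70, JAG1 0.25 ± 0.33, NOTCH1 −0.13 ± 0.63, NOTCH2 −0.13 ± 0.46, JAG2 −0.18 ± 0.47, HES1 −0.47 ± 1.38 and DLL4 −1.26 ± 1.44, each with an adjusted p of 1. The unadjusted p was under 0.05 for 1372 genes, and DESeq2 called 537. With these standard errors, changes of a size near 2-fold were not detectable for most members.

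HEY1 was lower in TS than in 2D H460 cells and higher in TS than in 2D A549 cells, and this difference did not pass its test (adjusted p = 0.190). In H460 cells HEY1 was 0.712 FPKM in TS cells, under the parental range of 0.968–1.25 FPKM. In A549 cells it was 0.415 FPKM (70 counts) in 2D and 2.50 FPKM (455 counts) in TS cells. The interaction of line and culture, added after seeing the data, called no member, and 0.487% of genes were called (0.389% higher and 0.0974% lower). In H460 TS cells none of the members was more than 2-fold from the parental mean, as were 3.3% of genes (1.48% higher and 1.82% lower). In A549 TS cells NOTCH3 (1.04) and HEY1 (1.31) were past 2-fold on the log2(FPKM + 1) scale, as were 7.22% of genes (4.73% higher and 2.49% lower). JAG2 was 5.99 FPKM in 2D and 3.09 FPKM in TS A549 cells, DLL1 0.0558 and 0.196 FPKM (15 and 59 counts), and DLL4 0.260 and 0.0607 FPKM (67 and 17 counts), each from 1 library on each side.

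The largest differences among the members lay between the cell lines. With culture as a covariate, 5 members differed between the 2 A549 and the 4 parental and TS H460 libraries, where 23.8% of 18488 genes did, 14.4% higher and 9.39% lower in A549 cells. NOTCH3 was 7.76-fold lower and NOTCH4 12.8-fold lower in A549 cells, with log2 fold changes of −2.96 ± 0.80 (adjusted p = 0.0373) and −3.68 ± 0.64 (adjusted p = 0.00831). JAG1 was 4.45-fold higher, at 40.1 and 32.8 FPKM in 2D and TS A549 cells against 5.18–10.4 FPKM in the 4 H460 libraries, with a log2 fold change of 2.15 ± 0.32 (adjusted p = 0.00492). JAG2 was 3.57-fold higher, at 1.84 ± 0.45 (adjusted p = 0.0271). For each of these genes both A549 libraries lay outside the H460 values. DLL4 was also called as higher, at 4.17 ± 1.21 (adjusted p = 0.0462), from 67 and 17 counts in A549 against 8, 0, 0 and 2 counts in H460 libraries, and it was called under 5 of 10 alternatives (0.0215–0.111).

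On the log2(FPKM + 1) scale the 2D A549 library differed from the parental mean by −2.89 in NOTCH3, 2.37 in JAG1 and 1.71 in JAG2, the 3 members past 2-fold, as were 17.8% of genes (10.2% higher and 7.52% lower).

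The target genes did not pass the test between the lines. HES1 was 7.72 and 9.42 FPKM in 2D and TS A549 cells, inside the H460 range, with a log2 fold change of 0.35 ± 1.35 (adjusted p = 0.877), and without parental library 3 it was 2.00 with an adjusted p of 0.0503 (0.0503–0.970 over the alternatives). HEY1 was 0.01 ± 1.04 (adjusted p = 0.998), and its sign changed with the scaling, at −0.02 with upper-quartile factors. NOTCH1, NOTCH2 and DLL1 were −0.99 ± 0.66, 0.25 ± 0.46 and 1.31 ± 0.71, with adjusted p of 0.322, 0.733 and 0.229. Both A549 libraries had the first form of library name, as did the H460 libraries of this comparison except parental library 2. NOTCH4 kept its call under all 13 alternatives (adjusted p of 4.48e-08–0.0426). JAG1 lost its call without the A549 2D library (adjusted p = 0.0849), NOTCH3 without that library (0.189) or parental library 1 (0.0536) and with no count filter (0.0517), and JAG2 without that library (0.351) or parental library 1 (0.0510) or 2 (0.0721). Over the alternatives the adjusted p was 7.58e-07–0.0849 for JAG1, 0.000262–0.189 for NOTCH3 and 0.00380–0.351 for JAG2. All 5 epithelial markers were tested, and 4 of them were higher in A549 cells. JAG2 shares 469 exonic bases with AL512356.1 on its own strand, JAG1 shares 79 with the antisense gene AL050403.2 and NOTCH4 shares 98 with GPSM3, and the handling of strand in counting is not given in the sources used here.

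The 70 other genes of the pathway, in 8 lists by role, moved in both directions in drug-resistant cells. Of 65 tested, 14 rose and 10 fell, where 18.2% and 14.3% of all genes did, and their median log2 fold change was 0.08 against 0.11 for all genes. These shares of all genes are the background of the counts by list that follow, which were not tested against it. Among noncanonical and other ligands 3 of 5 tested rose and none fell. CNTN1, a contactin of neurons, rose from 0.403–1.09 to 3.29–5.45 FPKM (2.25 ± 0.36, adjusted p = 0.00171), and DNER, a Delta-like transmembrane protein of neurons, rose from 49.1–60.3 to 106–129 FPKM (0.93 ± 0.20, adjusted p = 0.00719). EGFL7 was the remaining one, at 0.80. Of the 8 enzymes that add sugars to the receptors 3 fell and none rose. GXYLT1 and GXYLT2, which extend O-glucose on the receptor with xylose, fell from 4.69–6.43 to 2.66–4.15 FPKM (adjusted p = 0.00486) and by 1.59 ± 0.24 on the log2 scale (adjusted p = 0.00131), and XXYLT1, which adds a further xylose, was at −0.70.

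Genes of receptor cleavage were split. The γ-secretase subunits PSEN2 (0.70) and NCSTN (0.86) rose, whereas the subunit APH1A (−0.73) and the protease ADAM10 (−0.62) fell. The ubiquitin ligases that drive ligand endocytosis were split as well. MIB2 (1.10 ± 0.22, adjusted p = 0.00490) and NEURL1 (2.38 ± 0.66, adjusted p = 0.0210, at most 0.308 FPKM) rose, and NEURL1B (−2.25 ± 0.41, adjusted p = 0.00322) and MIB1 (−0.75) fell. Of the genes of receptor turnover, DTX3 (1.21 ± 0.24, adjusted p = 0.00536) and DTX2 (0.73), both of the Deltex family, rose and none of the 10 tested fell.

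In the nucleus, 1 of the 9 coactivator genes rose, the acetyltransferase KAT2A (0.72), and neither RBPJ nor a Mastermind gene was called. Of 13 corepressors, TLE1 (1.03 ± 0.26, adjusted p = 0.0140) and TLE4 (1.28 ± 0.23, adjusted p = 0.00324), which are Groucho proteins that HES factors recruit, rose and the deacetylases HDAC1 (−0.62) and HDAC2 (−0.85) fell. Among other genes of the HES and HEY families, not all of which are established Notch targets, HES2 rose from 0.0516–0.0768 to 0.335–0.621 FPKM (2.59 ± 0.35, adjusted p = 0.000748). HES7, the oscillator of somite segmentation, fell from 3.70–6.64 to 0.525–2.31 FPKM (−1.72 ± 0.40, adjusted p = 0.00982). The remaining 3 tested of this list did not pass the test.

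With the PR libraries alone, 11 of 65 pathway genes rose and 8 fell, where 17.4% and 10.7% of all genes did, with a median log2 fold change of 0.07 against 0.05 for all genes. Apart from DTX1 and MFNG, the largest were HES2 at 2.76 ± 0.43 (adjusted p = 0.00325), NEURL1 at 2.81 ± 0.65 (adjusted p = 0.0122), CNTN1 at 2.13 ± 0.42 (adjusted p = 0.00684), NEURL1B at −2.15 ± 0.57 (adjusted p = 0.0217) and GXYLT2 at −1.60 ± 0.36 (adjusted p = 0.0107). TLE4 (2.82-fold higher) and, by log2 fold change, TLE1 (1.29), DTX3 (1.28), MIB2 (1.19) and HES7 (−1.28) were also called, as they were with all drugs together. DTX1 (4.97 ± 1.07, adjusted p = 0.00924) and MFNG (3.08 ± 0.98, adjusted p = 0.0437) were called on very few reads, at 12 and 18 counts in PR against at most 1 count in parental libraries for DTX1, and at 10 and 27 against at most 4 for MFNG. None of the 65 genes was called between PR and the other drugs, and none of 64 between TS and 2D culture.

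Between the lines, 15 of 64 pathway genes were higher in A549 cells and 1 lower, where 14.4% and 9.39% of all genes were, with a median of 0.28 against 0.00 for all genes. DNER was the lower one, at 0.608 and 0.127 FPKM in A549 against 34.2–60.3 FPKM in the H460 libraries compared (−7.05 ± 0.49, adjusted p = 0.000319). CNTN1 was 18.2 and 40.3 FPKM in A549 cells (5.31 ± 0.62, adjusted p = 0.00179) and DLK2 3.24 and 3.03 FPKM (6.20 ± 0.91, adjusted p = 0.00433), against at most 1.09 and 0.123 FPKM in the parental and TS H460 libraries. The Fringe genes LFNG (3.04 ± 0.49, adjusted p = 0.00615) and MFNG (4.47 ± 0.86, adjusted p = 0.0118), which modify the receptors and their response to ligands, were higher. TLE1 (3.03), TLE4 (2.90), DTX2 (2.42), APH1B (2.14), HEYL (1.92), HES2 (1.77) and KAT2B (1.38) were higher too. TLE4 was at 0.0657 FPKM in H460 TS cells, against 1.07–1.47 FPKM in parental cells.

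**Figure D5:**
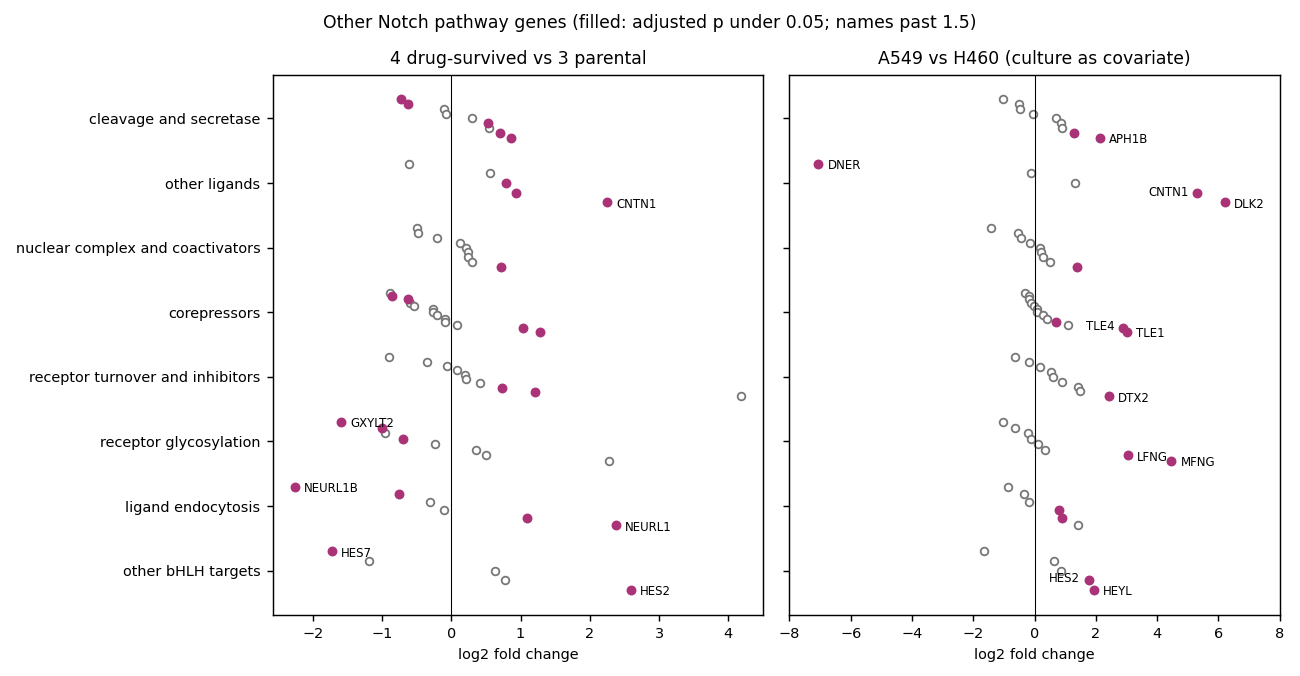
Log2 fold changes from edgeR of the other Notch pathway genes, by role, in drug-resistant against parental H460 cells (left) and in A549 against H460 cells (right), with filled points for an adjusted p under 0.05 and names for called genes past 1.5. On the left 14 filled points are above and 10 below 0, and on the right 15 are above 0 and DNER lies alone below it at −7.05.

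The genes whose pattern over the 10 libraries was most like that of a member were found by Pearson's r of log2 CPM among 20824 genes, as a description. The libraries share cell line, treatment and name form, and with this many genes searched high values of r are common. NOTCH3 was most like IGF2R, a sorting receptor for lysosomal enzymes (r = 0.990), and CPEB3 (0.972). NOTCH1 was most like SMG1P6 (0.970) and RAD54L2 (0.961), NOTCH2 like ARID1B and PLXNA1 (both 0.937) and NOTCH4 like LOC100506098 (0.990) and ZNF426-DT (0.985). JAG1 was most like CCDC144B (0.980) and TYW1B (0.968), JAG2 like SHANK2 (0.972) and DTX2P1-UPK3BP1-PMS2P11 (0.956), DLL1 like DDR1 (0.973) and UBE2H (0.968), and DLL4 like FCMR (0.979) and IMPDH1P10 (0.975). HES1 was most like CYP2D8P (0.956) and LINC01786 (0.953), both under 1 FPKM in every library, and HEY1 like ZDHHC11B (0.945) and IFIT3 (0.937). CPEB3, ZNF426-DT, CCDC144B, FCMR and IMPDH1P10 also stayed under 1 FPKM in every library.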

How the data were processed

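Poly(A) RNA of the 10 cultures was sequenced, and the authors deposited a table of raw read counts for each gene. Beside the counts it holds FPKM values that the authors had scaled for transcript length and library size, and the TPM values deposited beside them were scaled to 1 total per library and not used for tests. The submitters' processing notes name bcl2fastq 1.8.4, Trimmomatic, HISAT2 2.1.0, StringTie 2.1.3b and GRCh38. Read filters, strandedness and the treatment of multi-mapped reads are not given in the sources used here. In each library counts of 1 were rarer than counts of 2 (672 against 987 in parental library 1), so a count may not be 1 independent read. The labels name the TS libraries CTC.

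Counts were compared with the quasi-likelihood test of edgeR 4.0.16 in R 4.3.3 (TMM factors, genes with a count of at least 10 in at least 2 libraries fitted, Benjamini-Hochberg adjustment over all genes tested, threshold 0.05). Parental, CR, PR and DR libraries were fitted together for drug-resistant against parental and for PR against CR and DR cells, PR and parental libraries alone for PR, and parental, TS and A549 libraries with line and culture as terms. The SE of each edgeR log2 fold change was computed from that change and the F statistic of its test. Groups with 1 library were given as differences of log2(FPKM + 1), and a difference past 2-fold was counted. FPKM depends on an annotation of length, and long genes moved with the form of library name. Reads per library were between 59499787 and 89541774. Except for DLL1 and DLL4, and for NOTCH4 in A549 cells, the number of libraries thus limited precision more than depth.

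Alternatives were RLE and upper-quartile factors, no filter, a minimum of 50, DESeq2 1.42.0, limma 3.58.1 on log2(FPKM + 1) and log2(FPKM + 0.1), library-name form as a covariate, a replicate block, and each library left out. All 10 members were named in each comparison, with up to 12 other pathway genes of largest change past the threshold, and the called pathway genes outside that rule were added with their values. The 2 genes most like each member were named by r. The members and lists were chosen with earlier results of these data known. Some genes of the lists are not reported here. On simulated data with 200 changed genes, edgeR recovered 98% of 8-fold and 30% of 2-fold changes in the drug comparison (19902 genes). The false share among those called was 4.48%. For PR against parental cells (19430 genes) these values were 98%, 8% and 9.4%. For PR against CR and DR cells (19902 genes) they were 95%, 10% and 3.67%. In the TS comparison (18488 genes) they were 92%, 3% and 4.04%, and between the lines (18488 genes) 82%, 1% and 3.49%. Only the false share for PR against parental cells was thus above the threshold of 0.05. The changed genes were drawn from genes with higher mean counts than DLL1 and DLL4 had, so the recovered shares do not cover DLL1 and DLL4. The 200 changed genes were also far fewer than the 6465 genes called in the real drug comparison, so the false share there may differ. Python 3.11.15, pandas 2.3.3 and matplotlib 3.10.9 were used for other values and figures. Promoter sequences and positions came from RefSeq (GRCh38.p14) and GENCODE 29.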

Additional observations from a re-analysis of the deposited data

Results flagged for a closer look

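HEY1 and JAG1 are given here because the H460 TS library lay outside the parental range and the A549 TS library lay on the opposite side of its 2D library. HEY1 was 0.712 FPKM in the H460 TS library, below the 3 parental libraries (0.968–1.25 FPKM), and 2.50 FPKM in the A549 TS library, above the 2D library (0.415 FPKM). The difference between the lines, as the interaction of line and culture in edgeR, was 3.25 ± 0.86 on the log2 scale with an unadjusted p of 0.00449 and an adjusted p of 0.190, where 0.487% of 18488 genes were called. DESeq2 gave 3.27 with an adjusted p of 0.0132, and over the alternatives tried the adjusted p was 0.0132–0.406. JAG1 was 10.4 FPKM in the H460 TS library, above the 3 parental libraries (5.18–10.1 FPKM), and 32.8 FPKM in the A549 TS library, below the 2D library (40.1 FPKM). Its difference was −0.78 ± 0.68 with an adjusted p of 0.986. NOTCH1 and JAG2 also had differences of opposite sign, at 0.55 and 0.19 in H460 and −0.83 and −0.77 in A549 cells on the log2(FPKM + 1) scale, but their H460 TS values lay inside the parental range. Their interactions were −1.56 ± 1.12 and −1.14 ± 0.87, larger in size than that of JAG1, with adjusted p of 0.929 and 0.949. Each rests on 1 TS library a line, and the interaction test was added after seeing the data. In the 4 drug-resistant libraries no member reached Dixon's critical value for a single library. The largest gap to the nearest library was 0.768 of the range, for JAG1. There the CR library had 5.62 FPKM, against 13.0–15.2 FPKM in the PR and DR libraries. With only 4 libraries, which came from 3 different drugs, this test cannot show that none stood apart.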

How the results depend on the processing

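For the drug-resistant and parental comparison, 166 of 174 values outside the left-out libraries kept direction and side of the threshold, with 2 of the members called in place of 1 under RLE factors, upper-quartile factors, a minimum of 50 and DESeq2 (HEY1 in addition to DLL1). With library-name form as a covariate NOTCH2 turned to 0.043 and NOTCH4 to −0.075. For PR cells 185 of 216 were kept. There 4 members were called with upper-quartile factors and with limma (pseudocount 0.1), and 1 with no filter or with form as a covariate. With the replicate number as a block 4 members were called, and 4 also in the same 4 libraries without it. The numbers did not pair the libraries (r = 0.065 over 20824 genes, 2 pairs). NOTCH2 in PR cells was 0.012 and 0.029 with limma (pseudocount 1 and 0.1) and 0.14 with the replicate block, and NOTCH3 was −0.0027 with no filter. Between PR and the other drugs 509 genes were called with no filter, 419 by DESeq2 and 1091 and 1027 by limma, and NOTCH3 turned to 0.022, 0.13 and 0.13 and HES1 to 0.018, 0.053 and 0.052 under upper-quartile factors and the 2 limma fits. For TS cells 537 genes were called by DESeq2 and 8 and 20 by limma, NOTCH1 was 0.0010 and HES1 0.16 with limma at pseudocount 1, and HES1 0.33 at 0.1. Between the lines 3 members were called with no filter, and HEY1 was −0.025 with upper-quartile factors, −0.013 with no filter and −0.069 with limma (0.1). For the interaction, chosen after seeing the data, DESeq2 called 517 genes and 1 member. The cause of these changes was not tested.

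Leaving out each library in turn gave 1–4 members and 4279–6601 genes for all drugs, 0–4 and 695–6701 for PR, 0–67 genes for PR against the other drugs, 6–340 genes for TS, 1–5 members and 1847–3892 genes for the lines, and 72–593 genes for the interaction. Where it left 1 library in a group, that library was assumed to vary like the others. Log2 fold changes that turned lay at −0.38 to 0.42 (NOTCH1), −0.34 to 1.01 (NOTCH3) and −0.29 to 0.43 (NOTCH4) for all drugs, and at −0.064 to 0.75, −0.38 to 1.00 and −0.22 to 0.46 for these genes in PR. Against the other drugs they lay at −0.67 to 0.40 (HES1), −0.11 to 1.11 (JAG1), −0.35 to 0.22 (NOTCH3) and −0.070 to 0.24 (NOTCH4). For TS they lay at −1.08 to 1.17 (HES1), −0.63 to 2.64 (HEY1), −0.24 to 0.55 (JAG1), −0.89 to 0.25 (JAG2), −1.11 to 0.45 (NOTCH1) and −0.35 to 0.086 (NOTCH2), for the lines at −0.25 to 2.00 (HES1) and −1.45 to 1.83 (HEY1), and for the interaction at −1.42 to 1.96 (HES1) and −0.36 to 0.40 (NOTCH2).

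Members past 2-fold numbered 2 in CR with pseudocount 0.1 and log2 CPM, 4 in PR with these and upper-quartile FPKM, 3 in DR with log2 CPM and upper-quartile FPKM, 4 and 6 in A549 TS, and 7 and 7 in A549 2D cells with pseudocount 0.1 and log2 CPM. With single parental libraries as control they numbered 1–2 in CR, 1–4 in PR, 0–3 in DR, 0–3 in H460 TS and 4–5 in A549 2D cells, and HES1 lay at −0.29 to 3.41, −0.41 to 3.29 and −0.64 to 3.07 in CR, PR and DR cells. Depth limited DLL1 and DLL4, which had 0–97 counts, and NOTCH4 in A549 cells, which had 17 and 45 counts. In the H460 libraries NOTCH4 had 146–404 counts.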
